A study of Mus musculus with 9 samples.

Results

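The genes described here are the cell cycle and DNA replication genes of mouse lung: 4 G1 cyclins, 12 replication genes and 24 genes of mitosis, chosen by name and read through every probe set annotated with only that gene's symbol. Of the 40 genes, 39 had such a probe set, and Ccnb1 was not analysed here. They were read by 92 of the 45037 probe sets on the array, which carry 18193 gene symbols in all. After the dimmest 40% of all probe sets were left out, 59 probe sets of 32 genes were tested. The 7 genes with no probe set past that limit were Ccne2, Cdc6, Tyms, Aurkb, Ttk, Kif20a and Cenpe, and their levels are given without a test. A probe set past the limit had a mean level of at least 6.13, where the level is log2(signal + 16) after quantile normalisation.

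Whole right lungs of C57/BL6 (called BL6), FVB/N and SV129 mice were measured on 9 one-colour arrays. The hypoxic group was 6 arrays of mice kept for 4 weeks at 50 kPa, a low pressure that induces pulmonary hypertension, with 2 arrays from each strain. The normoxic group was 3 arrays of mice kept for 4 weeks at 85 kPa, the ambient pressure at Denver, with 1 array from each strain, so that group too breathed thinner air than at sea level. No allele or drug was named for either group, the animals' age and sex were not used here, and nothing in the labels says that arrays of a group came from separate animals. The p-values therefore measure only the spread between these arrays, which may be technical. In whole lung, fewer cycling cells and less RNA per cell cannot be told apart.

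A cell enters the cycle when D-type and then E-type cyclins, bound to their kinases, release E2F transcription factors from the retinoblastoma protein. CDC6 helps to load the MCM proteins as a ring on DNA, the ring becomes the replicative helicase with the GINS complex, and the clamp PCNA holds the polymerases while ribonucleotide reductase and thymidylate synthase supply nucleotides. Mitotic genes are switched on later, many through CCAAT boxes and the cell cycle homology region (CHR) of their promoters. Most cells of the adult lung rest outside the cycle, and chronic hypoxia is known for growth of the vessel wall.

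Promoters are shown for the 3 genes with the smallest p for hypoxia among the replication genes and among the mitosis genes. Only Mcm3 and Rrm1 of these passed the test given below. Bub1b was ranked on a probe set that entered the test through its hypoxic arrays. Each is the 150 bases before the annotated start, 5′ to 3′, from RefSeq on GRCm38.p6. Capitals mark matches, on either strand, to the CHR (TTTGAA or TTCGAA), to CCAAT, or to an E2F motif (TTTCCCGC, TTTGGCGC, TTTCGCGC or TTTGCCGC). The sites are Mcm3 (chr1:20820313-20820462, minus strand), Rrm1 (chr7:102441545-102441694, plus strand), Pcna (chr2:132253181-132253330, minus strand), Bub1b (chr2:118598061-118598210, plus strand), Cdk1 (chr10:69352913-69353062, minus strand) and Cdc20 (chr4:118437344-118437493, minus strand).
Mcm3: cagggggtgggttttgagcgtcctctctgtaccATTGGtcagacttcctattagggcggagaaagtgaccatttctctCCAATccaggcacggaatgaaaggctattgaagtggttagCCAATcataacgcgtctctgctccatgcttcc
Rrm1: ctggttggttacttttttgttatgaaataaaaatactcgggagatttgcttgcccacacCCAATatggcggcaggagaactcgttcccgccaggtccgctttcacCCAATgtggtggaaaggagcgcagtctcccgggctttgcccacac
Pcna: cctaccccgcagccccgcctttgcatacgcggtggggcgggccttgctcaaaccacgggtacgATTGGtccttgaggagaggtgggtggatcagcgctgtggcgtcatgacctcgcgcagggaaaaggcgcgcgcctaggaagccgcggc
Bub1b: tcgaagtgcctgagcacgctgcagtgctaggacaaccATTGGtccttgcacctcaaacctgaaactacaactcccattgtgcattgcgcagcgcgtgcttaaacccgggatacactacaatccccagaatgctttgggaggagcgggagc
Cdk1: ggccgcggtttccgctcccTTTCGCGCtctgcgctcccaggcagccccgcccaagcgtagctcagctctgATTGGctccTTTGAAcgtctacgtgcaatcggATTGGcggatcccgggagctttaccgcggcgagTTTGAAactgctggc
Cdc20: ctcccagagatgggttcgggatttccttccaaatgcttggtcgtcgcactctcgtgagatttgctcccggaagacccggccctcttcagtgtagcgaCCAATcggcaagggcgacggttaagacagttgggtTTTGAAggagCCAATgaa

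All 6 stretches held a CCAAT box on at least 1 strand, and Cdk1 and Cdc20 also held a CHR. In the whole window of 300 bases, which adds 100 bases upstream and 50 after the start, Bub1b had 2 CHR matches and Mcm3 had 2 E2F matches. RefSeq promoters were matched for 31 of the 40 genes. A CHR was present in 15 of 20 mitosis promoters (75%), in 2 of 10 replication promoters (20%) and in 19.4% of all 27025 promoters. An E2F match was present in 1 of 20 mitosis promoters (5%), in 5 of 10 replication promoters (50%) and in 2.32% of all promoters. A CCAAT box was present in 85% of mitosis promoters, 80% of replication promoters and 37.9% of all. The CHR and CCAAT stood together in 15 mitosis promoters, against 7.7% of all promoters. The motifs of the 3 kinds can share bases with one another, and a match describes letters, not a bound site.

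The arrays differed in ways that touch these values. Kidney genes averaged 11.45 on hypoxic BL6 array 2 and 12.44 on normoxic FVB/N array 1, over 20 markers, and 5.97 to 6.42 on the other 7 arrays. Their summed signal ran from 1742 to 103409 on hypoxic arrays and from 2278 to 178459 on normoxic arrays. Leaving out both arrays also removes the only normoxic FVB/N array. Hypoxia changes across strains given below without them therefore rest on BL6 and SV129. Brown fat and fast muscle genes averaged 9.36 on the same normoxic FVB/N array, and 5.80 to 6.63 on the 7 arrays without kidney transcripts. Lung epithelium markers were bright on every array, at 14.16 to 14.66 over 7 genes, and no marker of any list was listed at 0. The spiked bacterial control bioC had a signal of 959 to 1595 on hypoxic arrays and 301.2 to 315 on normoxic arrays, and bioD 2355 to 4410 on hypoxic arrays against 6523 to 7276 on normoxic arrays. Whatever separated the preparation of those controls cannot be told apart from pressure. The 3′ to 5′ log2 ratio of Gapdh ran from -0.27 to 0.25 on hypoxic arrays and from -0.31 to -0.08 on normoxic arrays.

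Hypoxia moved few of these genes past the test when strain was held fixed. Of the 59 probe sets, 2 rose, for Mcm3 and Rrm1, and none fell (3.39% called), where 3.76% of all 27022 tested probe sets were called by limma at an adjusted p under 0.05, 1.94% higher and 1.82% lower. The share of members called was thus close to that of the array. At an unadjusted p under 0.05 the members counted 19 (32.2%), beside 22.2% of all probe sets. Changes were above 0 for 44 probe sets and below 0 for 15, with a median of 0.15, where 53.8% of all probe sets were above 0 and their median was 0.04. Read through 1 probe set a gene, the brightest, 24 of the 32 genes were above 0 and none was called. By phase, 10 of 11 probe sets of G1 cyclins (median 0.24), 12 of 23 of replication (median 0.02) and 22 of 25 of mitosis (median 0.16) were above 0. Both tested Bub1b probe sets are among the 44 and the 22, and both entered the test through their hypoxic arrays. Without the 2 arrays that held kidney transcripts, no member was called, 7 of 11 probe sets of G1 cyclins were above 0 (median 0.10) and 11 of 24 of replication (median -0.10).

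**Figure D1:**
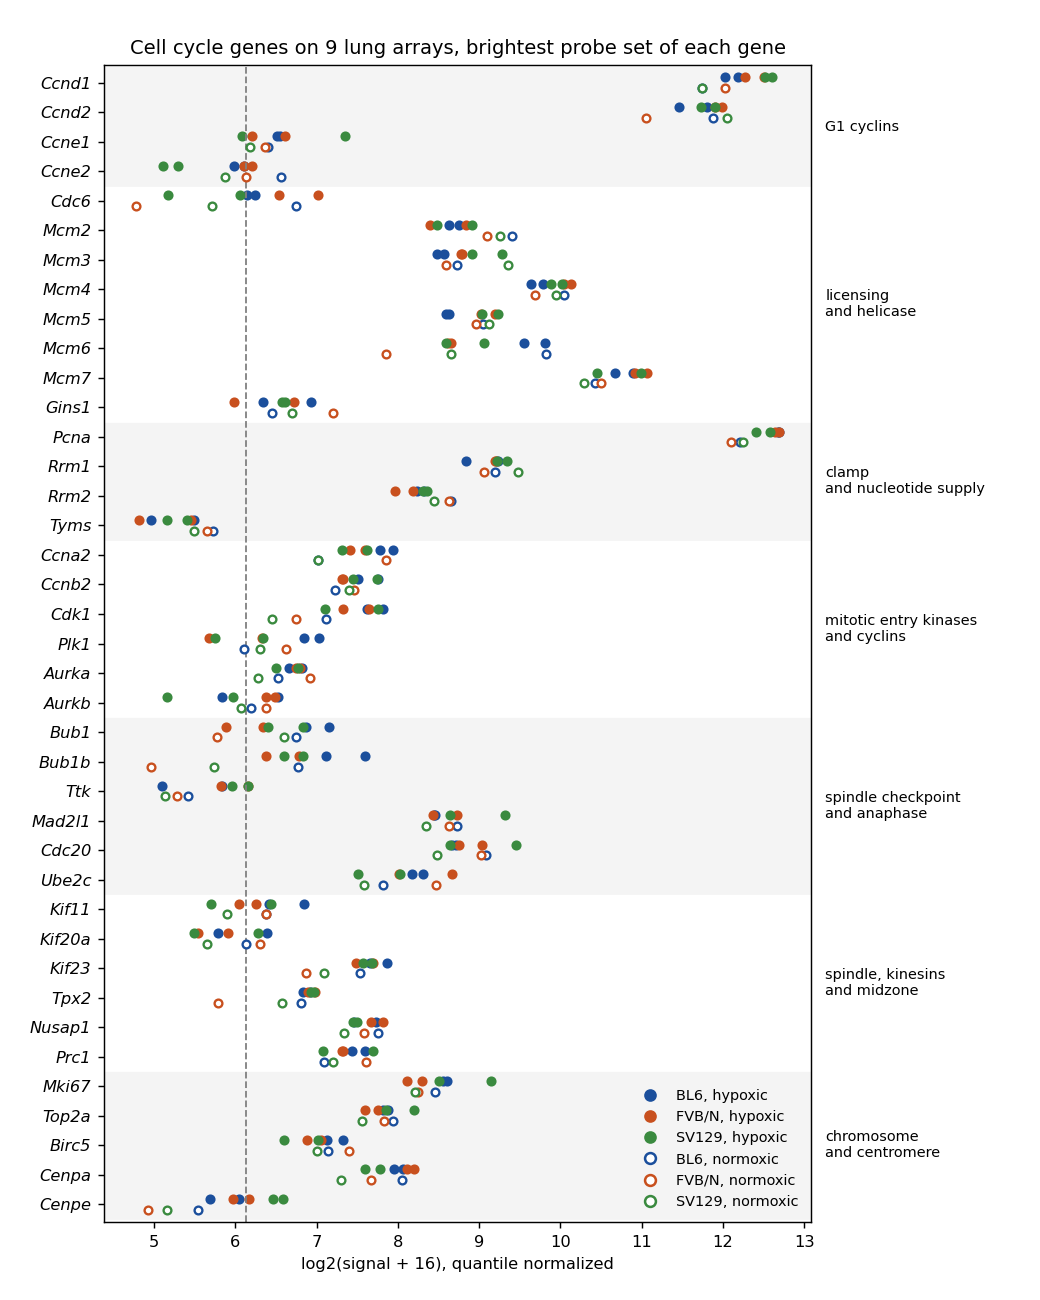
Level, log2(signal + 16) after quantile normalisation, of the brightest probe set of each of the 39 genes on each array, with 6 hypoxic arrays as filled points above 3 normoxic arrays as open points and strain by colour. The dashed line is the limit of 6.13 below which probe sets were not tested, and 7 genes lie below it on average; levels of different probe sets cannot be compared.

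Among the G1 cyclins, which couple growth signals to entry into the cycle, no probe set passed the test across strains. Ccnd1 (1448698_at), cyclin D1, had levels of 12.03, 12.18, 12.50, 12.28, 12.51 and 12.60 on the hypoxic arrays, given here and below as BL6 arrays 2 and 5, FVB/N arrays 2 and 6 and SV129 arrays 2 and 5. The normoxic arrays had 11.75, 12.03 and 11.74, in the order BL6, FVB/N and SV129. Each hypoxic array exceeded the normoxic array of its own strain, and the groups met only at hypoxic BL6 array 2 and normoxic FVB/N. The change of 0.51 ± 0.13 (SE) missed the threshold, with an adjusted p of 0.0604 by limma. The other Ccnd1 probe sets had changes of 0.39 on 1417419_at (adjusted p 0.156 by limma) and of -0.28 on 1417420_at (adjusted p 0.522).

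Ccnd2, cyclin D2, was read by 7 tested probe sets, all with changes above 0, from 0.03 to 0.52 (3 of them below 0, down to -0.52, without the kidney-carrying arrays), and none with an adjusted p under 0.356 by limma. Ccne1, cyclin E1, which brings the cell into S phase, had a change of 0.24 (adjusted p 0.675 by limma). Ccne2, cyclin E2, was too dim to test, at 5.80 ± 0.47 in hypoxic lungs (SD, n = 6) and 6.19 ± 0.35 in normoxic lungs (SD, n = 3).

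In the helicase, Mcm3 gave the largest change of any tested member probe set for hypoxia across strains. Its probe set 1426653_at had levels of 7.90, 7.67, 8.12, 7.95, 8.18 and 7.42 on the hypoxic arrays, against 6.60, 6.73 and 6.58 on the normoxic arrays. All 6 hypoxic arrays lay above all 3 normoxic arrays, in every strain. It rose by 1.24 ± 0.20 (SE), or 2.36-fold, with an adjusted p of 0.0194 by limma. Without the 2 arrays that held kidney transcripts the change was 1.17, with an adjusted p of 0.102.

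The other tested Mcm3 probe sets had other values. The probe set 1426652_at had 8.26, 8.46, 8.03, 8.76, 8.75 and 9.01 on hypoxic arrays and 7.82, 7.50 and 8.44 on normoxic arrays, above its own strain's normoxic array each time, with a change of 0.63 ± 0.20 and an adjusted p of 0.113 by limma. The brightest, 1420028_s_at, averaged 8.80 ± 0.28 in hypoxic lungs and 8.89 ± 0.41 in normoxic lungs (SD, n = 6 and n = 3), a change of -0.09. The probe set 1449705_x_at had a change of -0.13. On the mean of all its probe sets Mcm3 had a change of 0.30 ± 0.15 (SE), with an adjusted p of 0.334 by limma. That mean takes in 1420029_at, which was below the limit at a mean level of 5.72. The call rests on 1 probe set of the gene.

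Mcm2, another subunit of the ring, had a change below 0 on its brightest probe set. The probe set 1434079_s_at had levels of 8.75, 8.63, 8.40, 8.84, 8.48 and 8.91 on hypoxic arrays, against 9.41, 9.10 and 9.26 on normoxic arrays. All hypoxic arrays lay below all normoxic arrays, and the change of -0.59 ± 0.17 missed the threshold (adjusted p 0.088 by limma). The second Mcm2 probe set (1448777_at) had a change of 0.03.

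Mcm7, a further subunit of the ring, was read by 4 tested probe sets. The probe set 1438320_s_at had 10.67, 10.89, 11.07, 10.92, 10.44 and 10.99 on hypoxic arrays and 10.42, 10.50 and 10.29 on normoxic arrays, a change of 0.43 with an adjusted p of 0.139 by limma. Only hypoxic SV129 array 2 reached into the normoxic range. The other 3 had changes of 0.35, 0.13 and -0.16, and of 0.21, -0.10 and -0.21 without the kidney-carrying arrays.

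Mcm4, Mcm5 and Mcm6 each had 2 tested probe sets that differed in sign after quantile normalisation. Mcm4 had changes of 0.02 on 1416214_at (-0.11 without the kidney-carrying arrays) and -0.57 on 1436708_x_at (adjusted p 0.125 by limma). Mcm5 had changes of -0.09 on 1436808_x_at and 0.33 on 1415945_at, where all hypoxic arrays lay above all normoxic arrays (adjusted p 0.309 by limma). In the deposited signals the groups of 1415945_at overlapped. Mcm6 had changes of 0.27 on 1416251_at and -0.59 on 1438852_x_at (adjusted p 0.1 by limma). Gins1, a subunit of the GINS complex, had a change of -0.26, which turned to 0.15 without the kidney-carrying arrays, and Cdc6, the loading factor, was dim at 6.20 ± 0.61 in hypoxic lungs and 5.75 ± 0.99 in normoxic lungs (SD, n = 6 and n = 3).

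Rrm1, the large subunit of ribonucleotide reductase, which makes the deoxynucleotides for DNA, was the other gene that rose. Its probe set 1448127_at had 9.27, 9.10, 9.44, 9.34, 9.13 and 9.74 on hypoxic arrays, against 8.60, 8.49 and 8.67 on normoxic arrays. The groups did not overlap. The change was 0.75 ± 0.17 (SE), or 1.68-fold, with an adjusted p of 0.0481 by limma, and 0.65 with an adjusted p of 0.234 without the 2 kidney-carrying arrays. The gene's brighter probe set 1415878_at averaged 9.17 ± 0.17 in hypoxic lungs and 9.24 ± 0.22 in normoxic lungs (SD, n = 6 and n = 3), a change of -0.07. On the mean of its probe sets Rrm1 had a change of 0.41 ± 0.13 (SE), with an adjusted p of 0.149 by limma. That mean takes in 1440073_at, which was below the limit at a mean level of 5.25. The Rrm1 call too rests on 1 probe set.

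Pcna, the sliding clamp of DNA polymerase, was read by a single bright probe set (1417947_at). It had 12.68, 12.69, 12.65, 12.69, 12.41 and 12.59 on hypoxic arrays, against 12.22, 12.11 and 12.24 on normoxic arrays. The groups did not overlap, and the spread within each was small. The change of 0.43 ± 0.10 missed the threshold narrowly, with an adjusted p of 0.0568 by limma, and it was 0.35 (adjusted p 0.237) without the kidney-carrying arrays.

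Rrm2, the small subunit that limits the enzyme outside S phase, was lower on its brightest probe set in every hypoxic array than in any normoxic array. That probe set (1434437_x_at) averaged 8.23 ± 0.14 in hypoxic lungs and 8.58 ± 0.11 in normoxic lungs (SD, n = 6 and n = 3), a change of -0.35 with an adjusted p of 0.219 by limma. The gene's other probe sets had changes of -0.33 and 0.02. Tyms, thymidylate synthase, was dim at 5.22 ± 0.28 in hypoxic lungs and 5.62 ± 0.12 in normoxic lungs (SD, n = 6 and n = 3).

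Groups that do not overlap were counted over the tested members. All hypoxic arrays lay above all normoxic arrays for 6 of 59 probe sets (10.2%), those of Mcm3, Mcm5, Pcna, Rrm1, Cdc20 and Tpx2, and 6.53% of all tested probe sets did the same. They lay below for 2 (3.39%), those of Mcm2 and Rrm2, beside 4.12% of all. These counts hold after quantile normalisation, and in the deposited signals the Mcm5 and Tpx2 groups overlapped. Hypoxic FVB/N array 2 had 195 for Mcm5, against 211 on the normoxic SV129 array. It had 94.5 for Tpx2, against 106 on the normoxic BL6 array. How many of all probe sets separate in the deposited signals was not counted. Each hypoxic array exceeded its own strain's normoxic array for 15 of the 59 (25.4%), beside 14.5% of all tested probe sets. It lay under it for 4 (6.78%), beside 8.78% of all. The 15 include both tested Bub1b probe sets, which entered the test through their hypoxic arrays, so the higher share supports nothing for them.

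**Figure D2:**
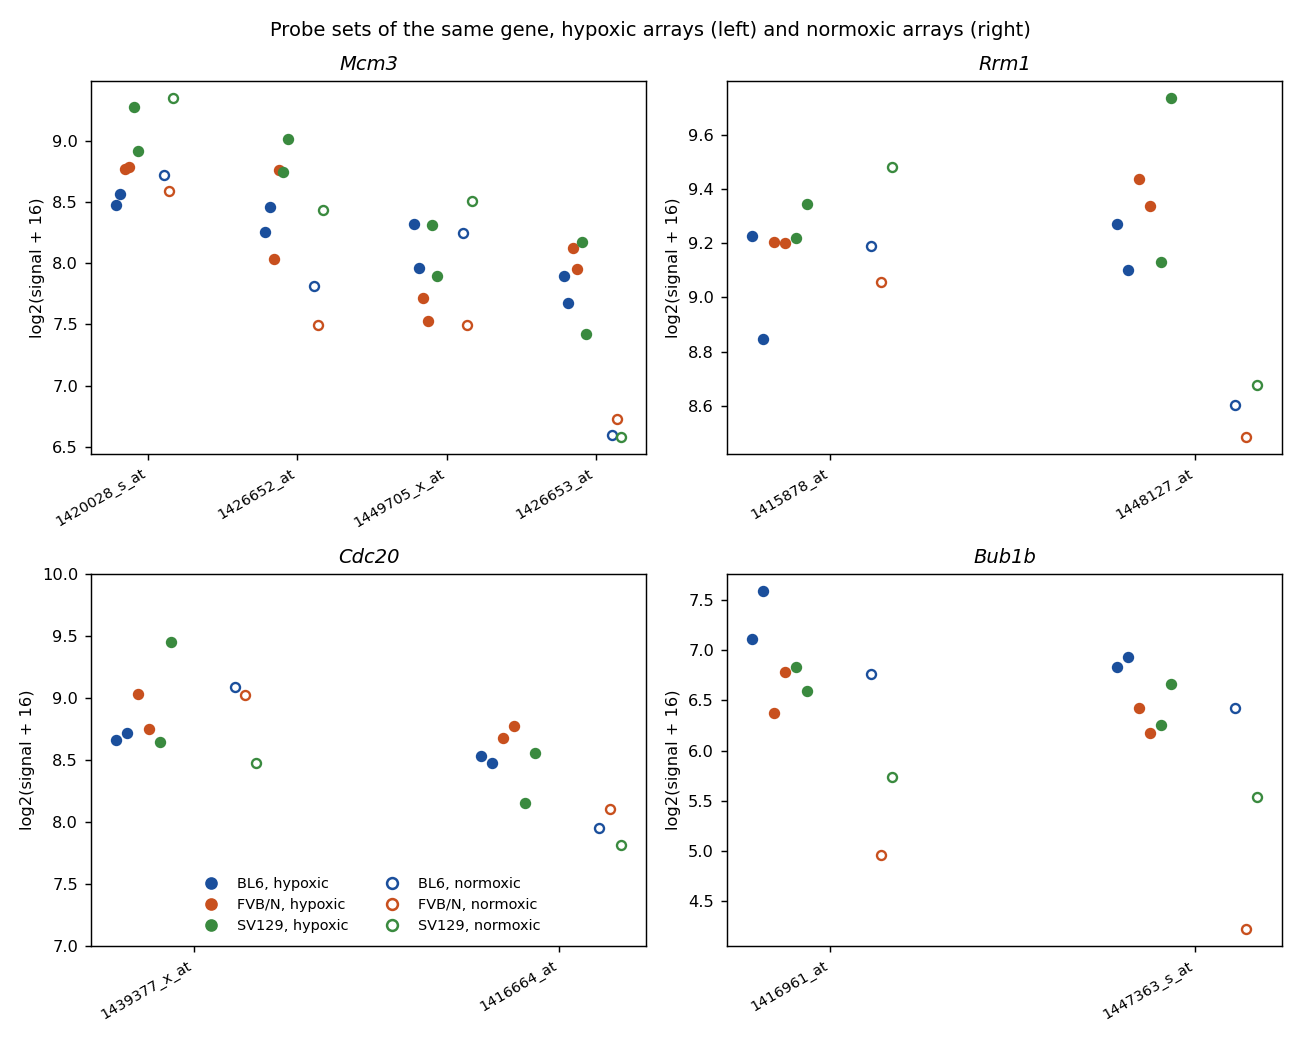
Level of each tested probe set of Mcm3, Rrm1, Cdc20 and Bub1b, with 6 hypoxic arrays on the left and 3 normoxic arrays on the right of each probe set and strain by colour. For Mcm3, Rrm1 and Cdc20, 1 probe set separates the groups while the brightest probe set of the gene does not.

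The direction of a gene depended on which probe set was read. Of 16 genes with several tested probe sets, 6 had all of them above 0, none had all below 0 and 10 were mixed, with a median spread of 0.52 between the highest and lowest change of a gene. The array maker gives the ending _x_at to probe sets with probes that may bind other transcripts. The 9 member probe sets of that kind had a median change of -0.13 with 3 above 0. The 1672 tested on the whole array had a median of -0.15 with 36.5% above 0. The 37 member probe sets ending in _at alone had a median of 0.17 with 31 above 0, beside 0.05 and 55% over the 19878 of that kind. The 13 ending in _a_at or _s_at had a median of 0.10 with 10 above 0, beside 0.05 and 54.6% over 5472. The part that binding to other transcripts plays was not tested.

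**Figure D3:**
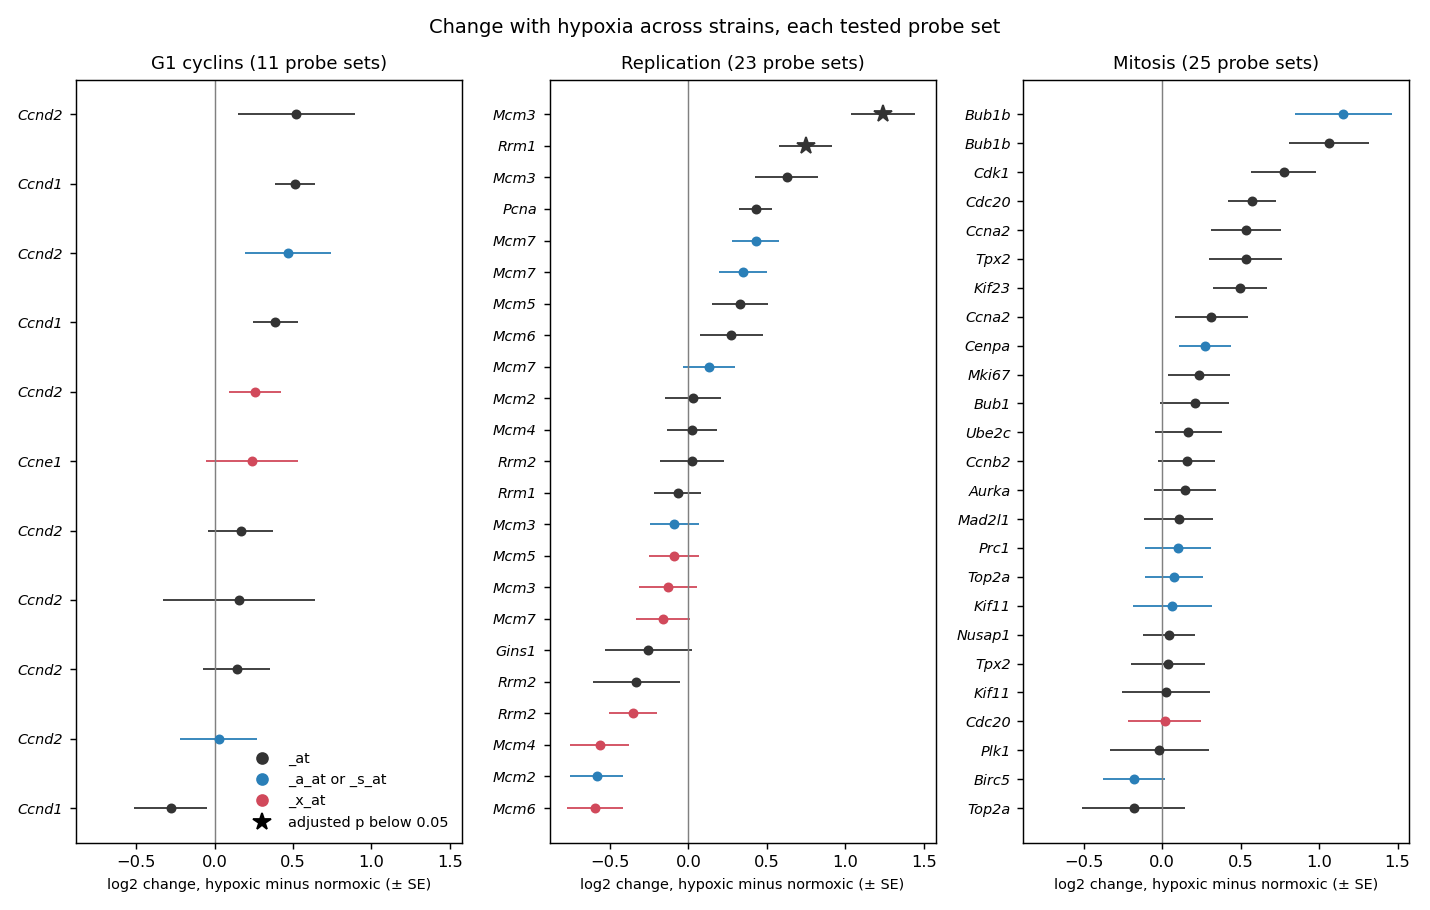
Change with hypoxia across strains (log2, hypoxic minus normoxic, with bars of 1 SE) of the 59 tested probe sets, in panels for G1 cyclins, replication and mitosis and coloured by the ending of the probe set name. Stars mark the 2 that passed the test, for Mcm3 and Rrm1, and 22 of the 25 mitosis probe sets lie above 0.

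Mitosis genes lay mostly above 0 without any of them passing the test across strains. Over the 23 genes on the array, the mean level was 7.09 to 7.33 on hypoxic arrays, with a median of 7.23. It was 7.11, 6.99 and 6.80 on the normoxic BL6, FVB/N and SV129 arrays. All hypoxic arrays but FVB/N array 6 exceeded every normoxic array. The 12 replication genes averaged 8.62 to 8.73 on hypoxic arrays and 8.51 to 8.87 on normoxic arrays, and the 4 G1 cyclins 8.90 to 9.27 on hypoxic arrays and 8.90 to 9.15 on normoxic arrays. With no limit on dim probe sets, 35 of 46 mitosis probe sets were above 0, with a median of 0.15. Without the kidney-carrying arrays 22 of 26 were, with a median of 0.25, on the authors' deposited scaling 19 of 25, with a median of 0.10, and with array weights 18 of 25, with a median of 0.26. The median of all probe sets under those settings was 0.02, 0.02, 0.02 and 0.04 in turn. When 1 array at a time was left out, 17 to 22 of the tested mitosis probe sets were above 0.

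Cdk1, the kinase that drives entry into mitosis, had levels of 7.81, 7.62, 7.33, 7.65, 7.75 and 7.10 on hypoxic arrays, against 7.12, 6.75 and 6.45 on normoxic arrays. Every hypoxic array exceeded the normoxic array of its strain, and only hypoxic SV129 array 5 lay within the normoxic range. The change was 0.77 ± 0.21 (SE), or 1.71-fold, with an adjusted p of 0.073 by limma, and 0.78 with an adjusted p of 0.25 without the kidney-carrying arrays.

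Its cyclin partners gave smaller values. Ccna2, cyclin A2, had on 1417910_at levels of 7.94, 7.78, 7.59, 7.41, 7.62 and 7.32 on hypoxic arrays and 7.02, 7.85 and 7.02 on normoxic arrays, a change of 0.31 (adjusted p 0.465 by limma), and of 0.59 (adjusted p 0.295) without the kidney-carrying arrays. Hypoxic arrays of BL6 and SV129 were higher than their normoxic array, and those of FVB/N were lower. The second probe set (1417911_at) had a change of 0.53, with an adjusted p of 0.199 by limma. Ccnb2, cyclin B2, had a change of 0.16. The mitotic kinases Aurka and Plk1 had changes of 0.15 and -0.02, and of 0.34 and 0.25 without the kidney-carrying arrays, and Aurkb was dim at 6.06 ± 0.52 in hypoxic lungs and 6.21 ± 0.15 in normoxic lungs (SD, n = 6 and n = 3).

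Bub1b encodes the checkpoint protein BUBR1, which delays anaphase until chromosomes are attached. Its probe set 1416961_at had 7.12, 7.60, 6.38, 6.79, 6.83 and 6.60 on hypoxic arrays, against 6.77, 4.96 and 5.74 on normoxic arrays. Each hypoxic array exceeded its strain's normoxic array, by least in BL6, where the normoxic array was within the range of the hypoxic arrays. The change of 1.06 ± 0.25 (SE) missed the threshold, with an adjusted p of 0.0557 by limma. The second probe set (1447363_s_at) averaged 6.55 ± 0.31 in hypoxic lungs and 5.39 ± 1.11 in normoxic lungs (SD, n = 6 and n = 3). These were the only 2 of the 59 tested member probe sets (3.39%) with a normoxic mean below the limit of 6.13, beside 2.68% of all tested probe sets, so both entered the test through their hypoxic arrays and had to differ. The second passed the limit in only 4 of the 9 fits that left out 1 array. Without the kidney-carrying arrays, 1 of which is the normoxic FVB/N array with the lowest value, the changes were 0.92 (adjusted p 0.173 by limma) and 0.76 (adjusted p 0.283).

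Cdc20, which activates the ubiquitin ligase that starts anaphase, separated the groups on 1 of its probe sets. The probe set 1416664_at had 8.54, 8.47, 8.67, 8.78, 8.16 and 8.56 on hypoxic arrays, against 7.95, 8.10 and 7.82 on normoxic arrays, a change of 0.57 ± 0.15 (SE) with an adjusted p of 0.0739 by limma. The brightest probe set of the gene (1439377_x_at) had 8.66, 8.72, 9.04, 8.75, 8.65 and 9.45 on hypoxic arrays and 9.09, 9.02 and 8.48 on normoxic arrays, a change of 0.02. There the groups overlapped fully.

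Of the remaining checkpoint genes, the change was 0.21 for Bub1, a kinase at the kinetochore, 0.11 for Mad2l1, the inhibitor of CDC20, and 0.17 for Ube2c, the ubiquitin carrier of the same ligase. The kinase gene Ttk was dim, at 5.84 ± 0.39 in hypoxic lungs and 5.28 ± 0.14 in normoxic lungs (SD, n = 6 and n = 3).

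Among spindle genes, Kif23, a kinesin of the central spindle, had 7.66, 7.87, 7.70, 7.48, 7.57 and 7.69 on hypoxic arrays and 7.54, 6.87 and 7.09 on normoxic arrays. Its change was 0.49 ± 0.17, with an adjusted p of 0.141 by limma. Tpx2, which nucleates spindle microtubules, had a narrow hypoxic range of 6.83 to 6.98 on 1428104_at, above normoxic levels of 6.81, 5.78 and 6.57. In the deposited signals the groups overlapped there. The change was 0.53 (adjusted p 0.218 by limma). Without the kidney-carrying arrays, 1 of which gave the lowest normoxic level, the change was 0.27 (adjusted p 0.665). Its other tested probe set had a change of 0.04, and of -0.04 without those arrays. Nusap1, a microtubule-binding protein, had 7.46, 7.73, 7.67, 7.82, 7.45 and 7.49 on hypoxic arrays and 7.76, 7.58 and 7.34 on normoxic arrays, which overlapped (change 0.04). The change was 0.06 for Kif11, the motor that keeps spindle poles apart, and 0.10 for Prc1, which bundles midzone microtubules. Kif20a was dim, at 5.90 ± 0.37 in hypoxic lungs and 6.03 ± 0.34 in normoxic lungs (SD, n = 6 and n = 3).

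The chromosome and centromere genes, which include the proliferation markers in common use, had no probe set with an unadjusted p under 0.05 for hypoxia. Mki67, whose protein coats mitotic chromosomes, had 8.60, 8.56, 8.30, 8.11, 8.50 and 9.15 on hypoxic arrays and 8.46, 8.25 and 8.21 on normoxic arrays. The groups overlapped, and the change of 0.23 ± 0.20 had an adjusted p of 0.528 by limma (0.40 and 0.514 without the kidney-carrying arrays). Top2a, the topoisomerase that untangles sister chromatids, had changes of 0.08 and -0.18 on its 2 tested probe sets, and of 0.21 and 0.27 without the kidney-carrying arrays. The change was -0.18 for Birc5, which encodes survivin, and 0.27 for Cenpa, the centromeric histone. Cenpe, a kinesin of the kinetochore, was dim on both of its probe sets. The brighter, 1435005_at, had 6.05, 5.69, 6.17, 5.96, 6.46 and 6.58 on hypoxic arrays and 5.54, 4.92 and 5.16 on normoxic arrays. The groups did not overlap there, but the lowest hypoxic signal was 32.4 and the highest normoxic signal 30.7. On 1439040_at the groups overlapped, with signals of 6.31 to 50.9 on hypoxic arrays and 6.89 to 23.6 on normoxic arrays. Both Cenpe probe sets were below the limit and received no test.

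Many of these changes moved when the 2 kidney-carrying arrays were left out, which also left FVB/N without a normoxic array. The shifts therefore mix the loss of kidney transcripts with the loss of 1 strain, which cannot be told apart. How many of all probe sets shifted likewise was not counted. Of the 59 probe sets, 10 turned direction, those named above for Ccnd2 (3), Mcm4, Mcm7, Gins1, Plk1, Tpx2 and Top2a and 1 of Kif11 (1452314_at, 0.02 on all arrays and -0.0028 without them). A further 18 changes were over 1.5 times larger, 10 were over 1.5 times smaller and 21 stayed within 1.5 times, and none of the 59 was called.

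Marker lists of other cells of the lung or blood are given beside these genes. Lung endothelium markers averaged 12.07 to 12.72 on hypoxic arrays and 11.65 to 12.32 on normoxic arrays, over 6 genes. Lung epithelium markers averaged 14.45 to 14.66 on hypoxic arrays and 14.16 to 14.50 on normoxic arrays over 7 genes, which overlapped. Their summed signal did not overlap, at 176898 to 214612 on hypoxic arrays against 126570 to 133030 on normoxic arrays. Thymus and lymphoid markers averaged 6.83 to 7.50 on hypoxic arrays and 6.63 to 7.11 on normoxic arrays over 11 genes, with summed signals of 2097 to 3781 on hypoxic arrays and 1645 to 2801 on normoxic arrays. Erythroid precursor markers averaged 7.81 to 8.37 on hypoxic arrays and 7.98 to 8.60 on normoxic arrays over 8 genes, and marrow granulocyte precursor markers 5.66 to 7.09 on hypoxic arrays and 5.98 to 7.59 on normoxic arrays over 7 genes. Macrophage markers averaged 8.31 to 10.27 on hypoxic arrays and 8.54 to 10.04 on normoxic arrays over 6 genes. The part of these cells in the results was not tested.

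Within strains, each comparison set 2 hypoxic arrays against 1 normoxic array, whose spread was taken from the other groups. In BL6 no member was called, where 0.0148% of all probe sets were called by limma, and 5 (8.47%) had an unadjusted p under 0.05, beside 12.5% of all probe sets. In SV129 no member was called, where 0% of all probe sets were called, and 7 (11.9%) had an unadjusted p under 0.05, beside 7.58% of all. In FVB/N 2 members were called higher (3.39%), where 6.8% of all probe sets were called, with 2.95% higher and 3.85% lower, and 14 (23.7%) had an unadjusted p under 0.05, beside 26.1% of all. Mitosis probe sets were above 0 for 18 of 25 in BL6 (median 0.25), 11 of 25 in FVB/N (median -0.04) and 22 of 25 in SV129 (median 0.38). The median of all probe sets was 0.02 in BL6, 0.17 in FVB/N and 0.01 in SV129. The 3 changes come from separate arrays, but their tests share the same estimate of spread and are not independent.

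The 2 calls in FVB/N were Bub1b and Ccnd2, and both rest on the lone normoxic array of that strain, the one with kidney, brown fat and muscle transcripts. Bub1b (1447363_s_at) had 6.42 and 6.18 in hypoxic FVB/N lungs against 4.22 in the normoxic one, a deposited signal of 3.05. That level is below the limit of 6.13 and the probe set entered the test through its hypoxic arrays, so its call is given no fold and supports nothing. On all 9 arrays this normoxic value was the lowest, while hypoxic lungs of BL6 had 6.83 and 6.93 beside 6.43 in the normoxic one, and hypoxic lungs of SV129 had 6.26 and 6.66 beside 5.54. Ccnd2 (1434745_at) had 11.90 and 11.99 in hypoxic FVB/N lungs against 11.05 in the normoxic one, and rose by 0.90 ± 0.21 (SE), or 1.86-fold, with an adjusted p of 0.0467 by limma. Ccnd2 had 11.46 and 11.80 in hypoxic BL6 lungs against 11.88 in the normoxic one, and 11.91 and 11.73 in hypoxic SV129 lungs against 12.05 in the normoxic one. The hypoxic arrays were thus higher only in FVB/N for this probe set. Neither call can be tested without the normoxic FVB/N array, which is the only one of its group.

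The difference in the hypoxia change between strains was tested directly, and no member and 0% of all probe sets were called by limma. The only members with an unadjusted p under 0.05 were 2 Ccnd2 probe sets (3.39%, beside 12.3% of all probe sets), with adjusted p of 0.238 for 1434745_at and 0.355 for 1448229_s_at. The probe set 1448229_s_at had 9.39 and 9.73 in hypoxic FVB/N lungs against 8.23 in the normoxic one. No member's response was shown to differ between strains.

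Between strains, with pressure held fixed, Mcm6 was the only member called. In BL6 lungs Mcm6 (1416251_at), a subunit of the helicase ring, had 9.55 and 9.81 under hypoxia and 9.82 under normoxia. In FVB/N lungs it had 8.65 and 8.61 under hypoxia and 7.85 under normoxia, and in SV129 lungs 9.06 and 8.60 under hypoxia and 8.65 under normoxia. All 3 BL6 arrays exceeded all 6 others. The BL6 minus FVB/N difference was 1.36 ± 0.23 (SE), or 2.56-fold, with an adjusted p of 0.0175 by limma. BL6 against FVB/N called 2 of 59 members (3.39%), both Mcm6 and both higher in BL6, beside 2.07% of all probe sets, 1.52% higher and 0.548% lower in BL6.

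The second Mcm6 probe set (1438852_x_at) had 8.09 and 8.14 in hypoxic BL6 lungs and 9.06 in the normoxic one, 7.17 and 6.92 in hypoxic FVB/N lungs and 7.32 in the normoxic one, and 7.09 and 7.05 in hypoxic SV129 lungs and 7.62 in the normoxic one. It was again higher on all BL6 arrays. The difference was 1.29 ± 0.21 (SE), or 2.45-fold, between BL6 and FVB/N (adjusted p 0.0129 by limma) and 1.18 ± 0.21, or 2.26-fold, between BL6 and SV129 (adjusted p 0.0198). The probe set 1416251_at differed by 0.96 between BL6 and SV129, with an adjusted p of 0.072. BL6 against SV129 thus called 1 member (1.69%), beside 2.51% of all probe sets, 1.35% higher and 1.16% lower in BL6. Without the kidney-carrying arrays, Mcm6 differed between BL6 and FVB/N by 1.23 (adjusted p 0.0733 by limma) and 1.21 (0.113), and between BL6 and SV129 by 1.07 (0.0482) and 1.23 (0.041), on 1416251_at and 1438852_x_at in turn. On the mean of all probe sets of the gene no call was made, with differences of 0.78 ± 0.22 (SE) between BL6 and FVB/N (adjusted p 0.137 by limma) and 0.58 ± 0.22 between BL6 and SV129 (adjusted p 0.276). That mean takes in 1447756_x_at, which was below the limit at a mean level of 4.93. This dim probe set averaged 4.70 in BL6, 5.00 in FVB/N and 5.08 in SV129.

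**Figure D4:**
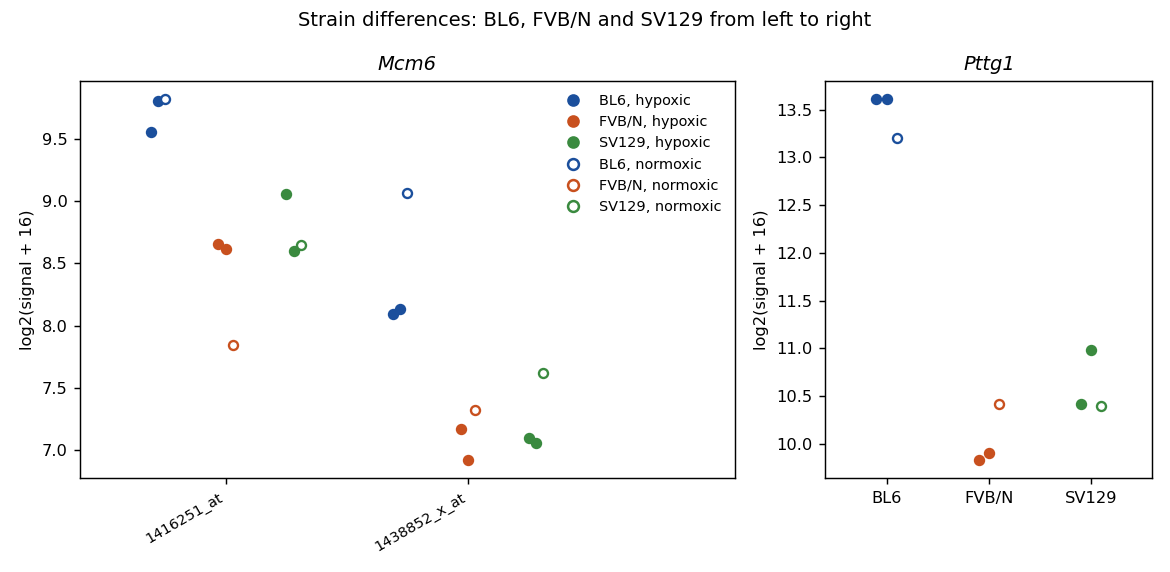
Level of the 2 tested Mcm6 probe sets and of Pttg1 on every array, by strain (BL6, FVB/N, SV129), with hypoxic arrays filled and normoxic arrays open. All 3 BL6 arrays lie above the other 6 for both Mcm6 probe sets and for Pttg1, where they sit between 13.21 and 13.61.

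No other member differed between strains past the test. Bub1b (1416961_at) averaged 7.16 ± 0.42 in BL6, 6.04 ± 0.96 in FVB/N and 6.39 ± 0.57 in SV129 (SD, n = 3 each), with a BL6 minus FVB/N difference of 1.12 and an adjusted p of 0.11 by limma. Ccna2 (1417911_at) averaged 7.79 ± 0.24 in BL6, 7.58 ± 0.24 in FVB/N and 6.79 ± 0.63 in SV129 (SD, n = 3 each). It differed by 1.00 between BL6 and SV129 (adjusted p 0.088 by limma) and by 0.79 between FVB/N and SV129 (adjusted p 0.167). FVB/N against SV129 called no member, beside 2.89% of all probe sets, 1.06% higher and 1.83% lower in FVB/N. At an unadjusted p under 0.05 there were 11 members (18.6%), beside 16.3% of all probe sets. There Ccnd2 (1448229_s_at) had the smallest p, with a difference of -1.14 (adjusted p 0.108 by limma), and Mcm3 (1449705_x_at) differed by -0.66 (adjusted p 0.167).

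Further genes of the pathway were read through their brightest probe set. For hypoxia across strains, none of 35 tested genes of the other replication machinery was called (4 with an unadjusted p under 0.05), 21 were above 0 and the median was 0.05. Of 34 other mitosis genes 1 rose and none fell, 18 were above 0 and the median was 0.01. Of 32 genes of cell cycle control none was called (9 with an unadjusted p under 0.05), 19 were above 0 and the median was 0.04. The median of each of the 3 lists thus lay near the 0.04 of all probe sets. Together the lists had 1 of 101 genes called (0.99%), where 3.76% of all probe sets were. Those with an unadjusted p under 0.05 were 11.4%, 20.6% and 28.1% of the lists in turn, beside 22.2% of all probe sets. The mitosis gene that rose was Fbxo5, which encodes EMI1, an inhibitor of the anaphase-promoting ligase. It had 7.76, 8.12, 8.34, 8.18, 8.13 and 8.06 on hypoxic arrays, against 7.54, 6.30 and 6.95 on normoxic arrays, with no overlap and a change of 1.17 ± 0.26 (SE), or 2.25-fold, at an adjusted p of 0.0474 by limma. Without the kidney-carrying arrays its change was 0.91 (adjusted p 0.115).

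The inhibitors and regulators of the cycle did not share a direction. Cdkn1c, the inhibitor p57, had 10.60, 10.73, 11.13, 10.89, 9.95 and 10.48 on hypoxic arrays and 9.999, 9.58 and 9.91 on normoxic arrays, a change of 0.80 ± 0.22 (adjusted p 0.0743 by limma), and of 0.49 (adjusted p 0.324) without the kidney-carrying arrays. Cdkn1b, the inhibitor p27, had 9.09, 9.67, 9.51, 9.08, 10.24 and 9.44 on hypoxic arrays and 11.38, 9.80 and 10.88 on normoxic arrays, a change of -1.18 ± 0.30 (adjusted p 0.0618), and of -1.33 (adjusted p 0.0797) without the kidney-carrying arrays. Hypoxic SV129 array 2 and the normoxic FVB/N array are where its groups met. The change was -0.64 for Rb1, the retinoblastoma gene (adjusted p 0.086 by limma), and -0.64 for Foxm1, an activator of mitotic genes (adjusted p 0.111). It was 0.34 for Cdkn1a, the inhibitor p21 (adjusted p 0.623 by limma), and 0.33 for E2f1, the S-phase activator (adjusted p 0.335). These last 2 changes were 0.01 (adjusted p 0.993 by limma) and 0.22 (adjusted p 0.734) without the kidney-carrying arrays.

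In FVB/N alone, 6 of the 101 tested pathway genes were called by limma (5.94%), where 6.8% of all probe sets were. Fbxo5 rose by 1.95 (adjusted p 0.027), Cdkn1c by 1.43 (0.0331), Timeless, a replication fork protein, by 1.32 (0.0442) and Gins3, of the GINS complex, by 1.56 (0.0497). Cks2, a small subunit of the cyclin-dependent kinases, fell by 2.29 (adjusted p 0.0256) and Kif20b, a kinesin of cytokinesis, by 2.82 (0.0256). Both had their highest level on the kidney-carrying normoxic FVB/N array, at 11.19 for Cks2 and 9.72 for Kif20b, and their second highest on the kidney-carrying hypoxic BL6 array 2, at 10.13 and 7.37. None of these FVB/N changes can be tested without that normoxic array. Gins3 had 7.56 and 7.13 in hypoxic FVB/N lungs against 5.78 in the normoxic one. That normoxic level is below the limit set for probe set means, so the Gins3 rise is measured from a dim value. The part of kidney transcripts in both falls was not tested.

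Strain set 2 pathway genes apart. Of the 101 tested pathway genes, BL6 against FVB/N called 1 (0.99%), beside 2.07% of all probe sets. BL6 against SV129 called 2 (1.98%), beside 2.51% of all, and FVB/N against SV129 called none, beside 2.89% of all. Pttg1 was read through a probe set ending in _s_at. Pttg1, securin, which holds the cohesin-cutting enzyme separase until anaphase, had 13.61 and 13.61 in hypoxic BL6 lungs and 13.21 in the normoxic one. It had 9.83 and 9.90 in hypoxic FVB/N lungs and 10.41 in the normoxic one, and 10.42 and 10.98 in hypoxic SV129 lungs and 10.39 in the normoxic one. The BL6 arrays stood far above the rest, by 3.43 ± 0.23 (SE), or 10.8-fold, over FVB/N (adjusted p 0.00012 by limma) and by 2.88, or 7.34-fold, over SV129 (adjusted p 0.000396). Without the kidney-carrying arrays the differences were 3.71 (adjusted p 0.000299) and 2.85 (adjusted p 0.000415). Ccng2, cyclin G2, was higher in BL6 than in SV129 by 1.01 ± 0.21 (adjusted p 0.0415 by limma, and 0.0816 without those arrays).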

How the data were processed

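RNA of whole right lung homogenate, extracted on Qiagen RNeasy columns and labelled with biotin per the labels' protocols, was measured on 9 arrays. The deposited values are 1 linear intensity signal per probe set and array; as the deposited values show, the authors had scaled each array to a mean intensity of 500 without the top and bottom 2% of probe sets. Which software made the signals is not given in the sources used, and no detection calls were used, so precision is limited by the number of arrays. The series' design text mentions 12 further arrays with technical difficulties, which are not analysed here.

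Groups came from the labels. After 64 control probe sets were left out, log2(signal + 16) was quantile normalised, a scale that understates changes of dim probe sets, and the dimmest 40% by mean were left out. limma 3.58.1 (R 4.3.3) fitted strain and condition together, or the 6 groups for single strains and their interaction, with an intensity trend. P-values were adjusted by Benjamini-Hochberg over all 27022 probe sets tested, with a threshold of 0.05. The fits left 5 and 3 residual degrees of freedom. The scripts were tested on simulated data. The platform's annotation gave 34945 probe sets a single symbol, 932 several and 9160 none. The members, the lists and the settings varied were chosen with earlier results of these data known. By rule, values on each array are given for members called, for those with the smallest p in each comparison and for the brightest of each role, and pathway genes are named where called or listed as regulators. Means ± SD run over arrays. Values on each array for Cenpe, Kif23, Tpx2, Mcm2, Mcm3 (1426652_at), Cdkn1b and Cdkn1c go beyond that rule and were chosen after they were seen. Promoters were searched with 1 RefSeq window per symbol.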

Additional observations from a re-analysis of the deposited data

Results flagged for a closer look

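On 4 of the 59 tested probe sets (6.8%), a single hypoxic array lay far from the other 5: its gap to the nearest of them, over the range of all 6, passed Dixon's critical value. Chance gives about 1 in 20. Ccnd1 (1417420_at) was 11.11 on hypoxic SV129 array 5 and 11.88 to 12.3 on the others. Rrm1 (1415878_at), the probe set of the gene that was not called, was 8.84 on hypoxic BL6 array 5 and 9.2 to 9.35 on the others. Mad2l1 (1422460_at) was 9.32 on hypoxic SV129 array 5 and 8.44 to 8.73 on the others. Top2a (1442454_at) was 4.96 on hypoxic BL6 array 2, an array with kidney transcripts, and 6.24 to 6.84 on the others.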

How the results depend on the processing

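No called result changed direction. For hypoxia across strains, 2 member probe sets were called. Under other settings the counts, each with the share of all probe sets called where the main one was 3.76%, were 5 (median centring, 5.33%, which moved the median of all probe sets to 0.11 and the share of higher calls among all calls to 71.3%, against 51.7%), 1 (pseudocount 64, 3.47%), 1 (no limit on dim probe sets, 1.29%), 3 (dimmest 60% left out, 6.64%), 1 (no intensity trend, 2.43%), 4 (array weights, 6.92%, the members 2 higher and 2 lower), 0 (without both kidney-carrying arrays, where 0.844% of all probe sets were called and 16.2% of those were higher) and 6 (kidney marker level as a covariate, 7.23%, the members 5 higher and 1 lower). For hypoxia in FVB/N, where 6.8% of all were called, the 2 became 1 (pseudocount 64, 6.99%), 0 (no limit on dim probe sets, 2.41%), 0 (no intensity trend, 0.0185%) and 6 (array weights, 11.8%). For BL6 against FVB/N, the 2 (2.07% of all) became 1 (dimmest 60% left out, 2.05%), 4 (array weights, 8.14%) and 0 (without both kidney-carrying arrays, 1.2%). For BL6 against SV129, the 1 (2.51% of all) became 2 (no limit, 1.43%), 0 (dimmest 60% left out, 2.6%) and 2 (without both kidney-carrying arrays, 2.06%). FVB/N against SV129 had 0, and 1 with no limit on dim probe sets (1.52%). The array weights did not fully converge, and the causes of these shifts were not tested.

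With 1 array left out at a time, the counts ran from 0 to 3 for hypoxia across strains (the 3 without hypoxic SV129 array 2, where 5.14% of all were called), 0 to 8 for hypoxia in FVB/N (the 8 without hypoxic SV129 array 2 or 5, where 14.2% and 14% of all were called), 0 to 2 for BL6 against FVB/N and 0 to 2 for BL6 against SV129, and stayed at 0 for the rest. Where a group lost an array, the remaining one was assumed to vary like the other groups. The Mcm3 call (change 1.14 to 1.35) was lost without hypoxic BL6 array 5 (adjusted p 0.0683 by limma), hypoxic FVB/N array 2 (0.0512), normoxic BL6 (0.101) or normoxic SV129 (0.107). The Rrm1 call (change 0.67 to 0.83) held only without hypoxic SV129 array 2 (0.0292), with adjusted p up to 0.174 otherwise. Mcm6 in BL6 against FVB/N lost both calls without hypoxic BL6 array 5 (0.101 and 0.0687) or normoxic BL6 (0.102 and 0.0915), and 1 without hypoxic FVB/N array 6 (0.0526). In BL6 against SV129 its call was lost in 6 of 9 fits, without any 1 array of BL6 or SV129 (0.0593 to 0.107), and held in the 3 that left out an FVB/N array (0.0106 to 0.0392). The median member change for hypoxia stayed between 0.12 and 0.19. The Ccnd2 call in FVB/N was lost without hypoxic BL6 array 2 (0.0595) or 5 (0.0567), or hypoxic FVB/N array 2 (0.173) or 6 (0.176). The Bub1b probe set called there passed the limit in only 3 of 8 fits and was called in 2, with adjusted p up to 0.141.

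Array numbers recur across strains. Differences of array 2 from the other hypoxic array of its strain correlated at -0.03, -0.04 and -0.19 between strains. These values cannot settle whether the numbers pair the arrays, because the other numbers differ and BL6 array 2 held kidney transcripts. With the number as a random replicate block (estimated correlation -0.24), 16 member probe sets were called for hypoxia (13 higher, 3 lower), beside 20.7% of all probe sets. With a fixed replicate block, 0 were called in BL6 against FVB/N and 0 in BL6 against SV129. A fixed block for hypoxia could not be fitted, because number 1 is every normoxic array.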
